A study of Mus musculus with 70 samples.

Results

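IgLON and Cadm proteins are adhesion molecules that sit on the surface of neurons and glia, and 9 genes encode them in the mouse: Negr1, Lsamp, Ntm, Opcml and Iglon5 (the IgLON family) and Cadm1, Cadm2, Cadm3 and Cadm4 (the Cadm or SynCAM family). These genes were taken by name from the 34677 genes of the gene-level expression table, whatever their values, and all 9 were found, had counts and passed the filter on low counts that left 19960 genes for testing. Negr1, Cadm1 and Cadm2 lie at loci associated with body weight in human genome-wide studies. IgLON proteins are held to the outer membrane by a lipid anchor and have no part inside the cell, and they bind one another in pairs of the same or different members. Cadm proteins cross the membrane, bind each other across the gap between cells, and carry a short inner tail that binds band 4.1 and MAGUK scaffold proteins. Both families are known for roles in neurite outgrowth, in the formation of synapses and in contacts between axons and glia.

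Sequenced mRNA from C57BL/6 mice and cells gave 70 libraries in 24 groups; the study's methods give the mice as C57BL/6NTac and the adults as male. Adult brain (P56) gave 57 libraries from 18 regions: 3 of cerebral cortex (anterior cingulate area, ACA; frontal pole cortex, FRP; entorhinal area, ENT), the nucleus accumbens (ACB), the ventral tegmental area (VTA), 5 of hypothalamus (arcuate nucleus, ARH; dorsomedial nucleus, DMH; lateral hypothalamic area, LHA; paraventricular nucleus, PVH; ventromedial nucleus, VMH), 3 called here hindbrain nuclei (parabrachial nucleus, PB; nucleus of the solitary tract, NTS; dorsal-vagal complex, DVC), the cerebellar nuclei (CBN) and 4 of cerebellar cortex (central lobule II, CENT2; culmen lobules IV-V, CUL4-5; uvula, UVU; flocculus, FL). Embryonic brain at E14.5 gave 9 libraries from forebrain (F), midbrain (M), hindbrain (H) and the terminal (rostral) and peduncular (caudal) hypothalamus (THy-PHy), and 4 libraries came from 2 lines (clones) of mouse embryonic stem cells (mESC), B6-1 and B6-2. No mutation is named for any group and no treatment for the brain groups, and a group had 2 to 4 libraries, apart from F with 1, for which no spread is given. Per the study's methods, the mESC were grown before collection with LIF, small-molecule inhibitors and medium conditioned by embryonic fibroblasts.

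Brain samples were punches from frozen sections in which tissue of several mice or embryos was pooled, apart from 1 ACB sample, so replicates differ as pools of animals do and not as single animals. Regions were punched from a shared set of mice, and the labels do not tie libraries to mice, so libraries of different regions can hold tissue of the same animals and p-values that take them as independent may be too small. A punch holds many cell types, and fewer cells of a type and less RNA per cell cannot be told apart in it. The study collected its samples in several batches, and the labels name no batch for a library, so differences of stage and of batch could not be told apart. The total estimated count had a median of 17016935 per library and ranged from 9074581 to 22229582, and no pair of libraries of a group was close enough to be a duplicate. In VTA replicate 1 mitochondrial genes took 39.6% of all TPM (median 7.49%). In H replicate 1 they took 22.6%, its total count was the lowest of all libraries, and the summed level of 5 neuron markers was 936.9 TPM against 2338 and 2527 TPM in the other H libraries. Ranges, ratios and calls that moved without these libraries are also given without them. The marker genes of the regional labels that are reported here were highest in the labelled region, with these exceptions: the LHA genes Hcrt and Pmch also reached means of 799.3 and 3525 TPM in VMH, Sim1 of PVH was highest in THy-PHy, Fezf1 of VMH was highest in THy-PHy, and Calca was as high in DVC (39.43 TPM) as in PB (39.22 TPM). Markers of other nuclei were also present in ARH. Oxt of PVH had a mean of 356.5 TPM there (1264 TPM in PVH), and Nr5a1 of VMH 18.25 TPM (33.62 TPM in VMH).

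On build GRCm38 the 9 genes lie at chr3:156561794-157316445 (Negr1), chr16:39984361-42181679 (Lsamp), chr9:28994750-29963141 (Ntm), chr9:27790775-28925410 (Opcml), chr7:43472904-43490075 (Iglon5), chr9:47530173-47857637 (Cadm1), chr16:66655421-67620908 (Cadm2), chr1:173333258-173367695 (Cadm3) and chr7:24482023-24504539 (Cadm4). Lsamp spans 2197319 bases and Iglon5 17172 bases, and Opcml and Ntm are neighbours on opposite strands of chromosome 9. Exons of Cadm3 overlap those of Ackr1 on the same strand and exons of Cadm2 overlap an antisense gene, 1700010K23Rik, so that some reads of these pairs could be split differently; the libraries were strand-specific, but whether the quantification used the strand is not given in the sources used here.

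Transcripts of Cadm1 and Cadm3 differ by short coding exons whose use differed between areas or stages in the data described further on. These exons are shown in capitals on their sense strand, from the genome of build GRCm38, with 12 bases of the neighbouring exons in lower case. Each has a length that is a multiple of 3, so that skipping it keeps the reading frame. The Cadm1 exons follow one another directly in transcripts that hold both and lie at chr9:47818734-47818817 (84 bases) and chr9:47829377-47829409 (33 bases). The Cadm3 exon of 102 bases lies at chr1:173349022-173349123.
Cadm1 84-base exon: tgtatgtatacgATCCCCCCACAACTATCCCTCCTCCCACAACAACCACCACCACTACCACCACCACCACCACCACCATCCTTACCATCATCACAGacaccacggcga
Cadm1 33-base exon: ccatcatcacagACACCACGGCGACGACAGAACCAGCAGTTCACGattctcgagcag
Cadm3 102-base exon: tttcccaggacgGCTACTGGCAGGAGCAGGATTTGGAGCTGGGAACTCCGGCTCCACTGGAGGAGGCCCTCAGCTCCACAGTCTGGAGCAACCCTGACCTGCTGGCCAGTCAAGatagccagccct

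Levels are given as TPM, in which reads are scaled to the length of each transcript and to a fixed total per library, so that they can be compared between genes. All 9 genes were expressed in every adult library, from 13.99 TPM (Iglon5 in ACB) to 858.9 TPM (Cadm3 in CUL4-5), and they fell into genes with nearly flat and genes with uneven levels across the 18 adult regions. Lsamp and Cadm4 were the flattest, with a ratio of the highest to the lowest region mean of 1.57 and 1.69 (1.58 for Cadm4 without VTA replicate 1, with ENT then lowest). Iglon5 was the least even, with a ratio of 6.83, followed by Cadm3 (4.17, or 4.02 without VTA replicate 1), Opcml (3.64), Cadm2 (3.47), Cadm1 (3.38), Negr1 (3.15) and Ntm (2.89). Neighbours in the order of groups mostly overlapped: between 16 (Opcml, Iglon5) and 21 (Cadm4) of the 23 pairs of neighbouring groups had overlapping library ranges.

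**Figure D1:**
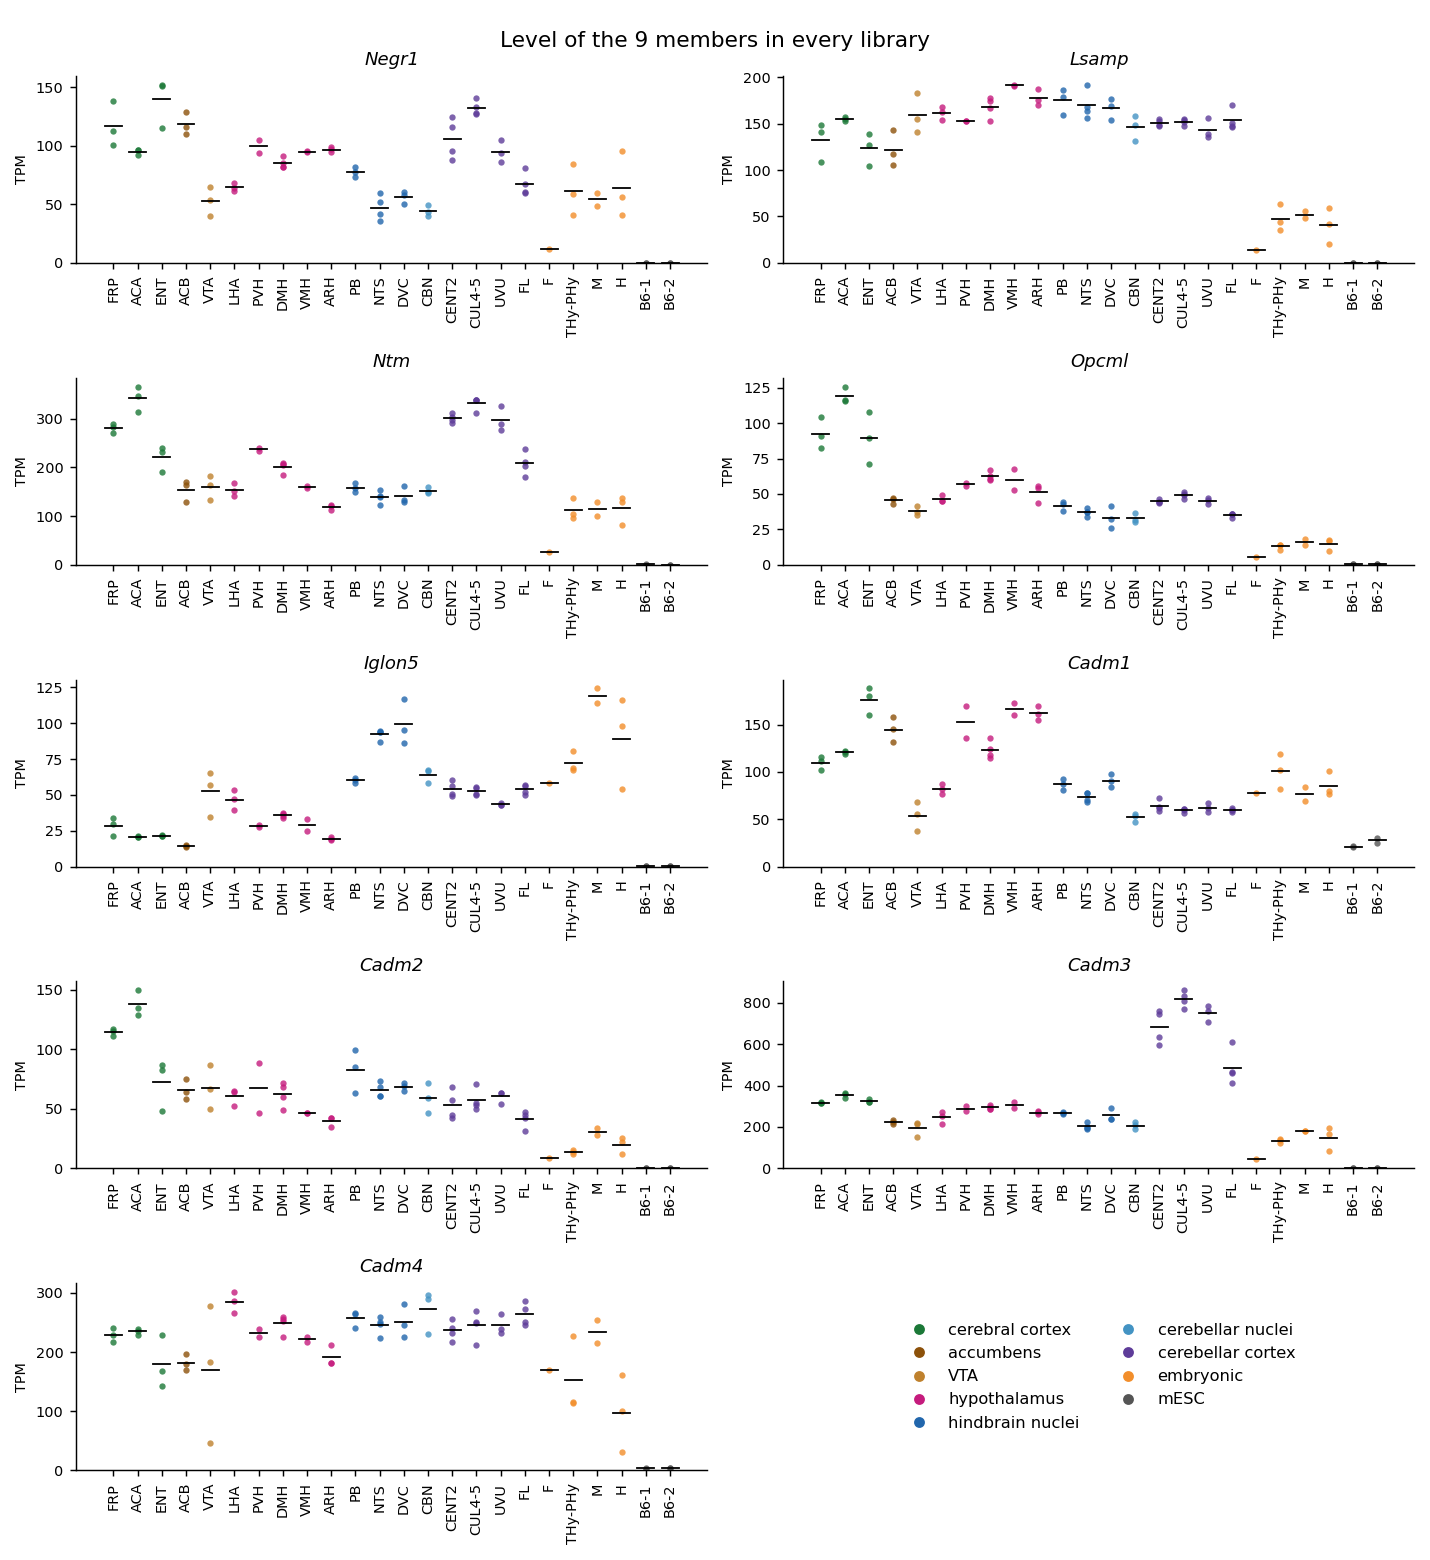
Level of each of the 9 genes in TPM (vertical axis, linear, from 0) in each of the 70 libraries (points), by group along the horizontal axis, with the group mean as a line. Iglon5 is highest in M, DVC, NTS and H and lowest in ACB among brain groups, Cadm3 stands out in the 4 regions of cerebellar cortex, and every gene but Cadm1 is near 0 in the 2 mESC lines.

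Among the IgLON genes, Negr1, which promotes neurite outgrowth, had its highest means in ENT at 139.7 ± 21 TPM (SD, n = 3) and CUL4-5 at 132.3 ± 6.12 TPM (n = 4), followed by ACB, FRP and CENT2. The first 10 groups in this order overlapped one with the next. Its lowest adult means were 47.29 ± 10.6 TPM in NTS (n = 4) and 44.37 ± 4.84 TPM in CBN (n = 3), which also overlapped. Lsamp, first described as a surface protein of limbic regions, had its highest mean in VMH, with 190.4 and 191.9 TPM, above every library of the next group, ARH (169.7 to 187.2 TPM), though 1 NTS library reached 191.2 TPM. ENT (123.5 ± 17.2 TPM) and ACB (122.0 ± 19.3 TPM, each n = 3) had its lowest adult levels. The cortical libraries of ENT, at 104.8 to 138.5 TPM, lay in the lower part of the adult range for Lsamp. Those of ACA, at 153.1 to 157.1 TPM, lay near the median of all adult libraries, 154.3 TPM.

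Ntm, or neurotrimin, was the most abundant IgLON gene of cortex, with 341.7 ± 26.2 TPM in ACA (n = 3) and, overlapping with it, 331.7 ± 13.8 TPM in CUL4-5 (n = 4). The first 5 groups, ACA, CUL4-5, CENT2, UVU and FRP, stood apart from the next, PVH at 237.3 ± 4.13 TPM (n = 2). ARH had the lowest adult mean, 118.3 ± 5.70 TPM (n = 3), and overlapped with NTS above it. Opcml, also called OBCAM, showed a stepwise order, with 119.1 ± 5.75 TPM in ACA, then FRP (92.59 ± 10.8 TPM) and ENT (89.36 ± 18.4 TPM, each n = 3), each library of which was above those of DMH, the next region, at 62.39 ± 3.09 TPM (n = 4). Its lowest adult mean was 32.75 ± 3.32 TPM in CBN (n = 3).

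Iglon5, the IgLON gene whose protein is the target of autoantibodies in a human sleep and brainstem disorder, had an order unlike that of the others. Its highest means were in the embryonic midbrain (119 ± 7.38 TPM, n = 2), DVC (99.24 ± 15.6 TPM, n = 3) and NTS (92.3 ± 3.72 TPM, n = 4), which overlapped. The ACB libraries, at 15.21, 14.39 and 13.99 TPM, were below those of ARH (18.52 to 20.74 TPM), and the cortical means lay between 20.85 and 28.48 TPM. So the regions in which Iglon5 was high were caudal and embryonic, and those in which it was low were rostral.

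Among the Cadm genes, Cadm1, the founding SynCAM, was highest in ENT (176.4 ± 14.7 TPM, n = 3), VMH (166.8 ± 8.77 TPM, n = 2), ARH (161.8 ± 7.00 TPM, n = 3) and PVH (152.6 ± 24.4 TPM, n = 2), and each of these overlapped with the next. Its lowest brain means were in the cerebellum and VTA, down to 52.21 ± 4.48 TPM in CBN (n = 3). Cadm2 was highest in ACA at 134.2, 129.0 and 149.4 TPM and next in FRP at 115.1, 117.2 and 111.2 TPM. These cortical regions stood apart from each other and from PB (82.51 ± 18.2 TPM, n = 3), while ENT varied from 48.18 to 86.88 TPM between its 3 libraries. The lowest adult mean of Cadm2 was in ARH, 39.58 ± 4.35 TPM (n = 3).

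Cadm3 was the most abundant of the 9 genes in every region of cerebellar cortex, with 815.5 ± 38.7 TPM in CUL4-5 (n = 4), 750.8 ± 40.0 TPM in UVU (n = 3), 683.7 ± 81.7 TPM in CENT2 (n = 4) and 486.2 ± 84.1 TPM in FL (n = 4). It also had the highest mean of the 9 in the cerebral cortex (333.2 TPM), ACB (223.5 TPM) and the hypothalamus (279.4 TPM). In CBN (272.3 TPM) and over the pooled libraries of the hindbrain nuclei (250.7 TPM) Cadm4 had the highest mean. Of these nuclei only NTS had Cadm4 above Cadm3 (245.7 against 202.8 TPM). In PB (257.0 against 267.8 TPM) and DVC (251.0 against 256.0 TPM) Cadm4 was below Cadm3. Within the hypothalamus, LHA had Cadm4 (284.7 TPM) above Cadm3 (246.2 TPM). The FL libraries, at 607.8, 459.1, 463.8 and 414.0 TPM, were all above the highest library outside the cerebellar cortex, 366.2 TPM in ACA. FL also had lower sums of granule cell markers (Gabra6 and Cbln3, 487.3 to 938.4 TPM, against 876.2 to 1521 TPM in the other 3 regions) and higher sums of 5 oligodendrocyte markers (8151 to 11112 against 1158 to 3443 TPM), and their part in the Cadm3 level was not tested. Cadm4, known for contacts between axons and the glia that wrap them, had its highest mean in LHA at 284.7 ± 18 TPM (n = 3), and the first 15 groups overlapped one with the next. In VTA it read 45.88 TPM in replicate 1, the library rich in mitochondrial reads, and 278.0 and 182.8 TPM in the others, so its VTA mean of 168.9 ± 117 TPM says little.

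Summed over the family, IgLON genes reached 422 to 762 TPM in adult libraries and Cadm genes 286 to 1215 TPM. Both lowest values were VTA replicate 1, and without it the lowest sums were 430 and 520 TPM. In the cerebral cortex (9 libraries) Ntm made up a median of 42.4% of the IgLON sum and Iglon5 3.25%, whereas in the hindbrain nuclei (10 libraries) Lsamp was first with 34.5% and Iglon5 held 18.6%. Cadm3 held a median of 66.6% of the Cadm sum in the cerebellar cortex (15 libraries) and 41.4% in the cerebral cortex. In the embryonic brain (9 libraries) the IgLON sum was 115 to 417 TPM, of which Iglon5 held a median of 27.8% and Opcml 4.29%. The Cadm sum there was 201 to 547 TPM, and at least 301 TPM without H replicate 1.

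**Figure D2:**
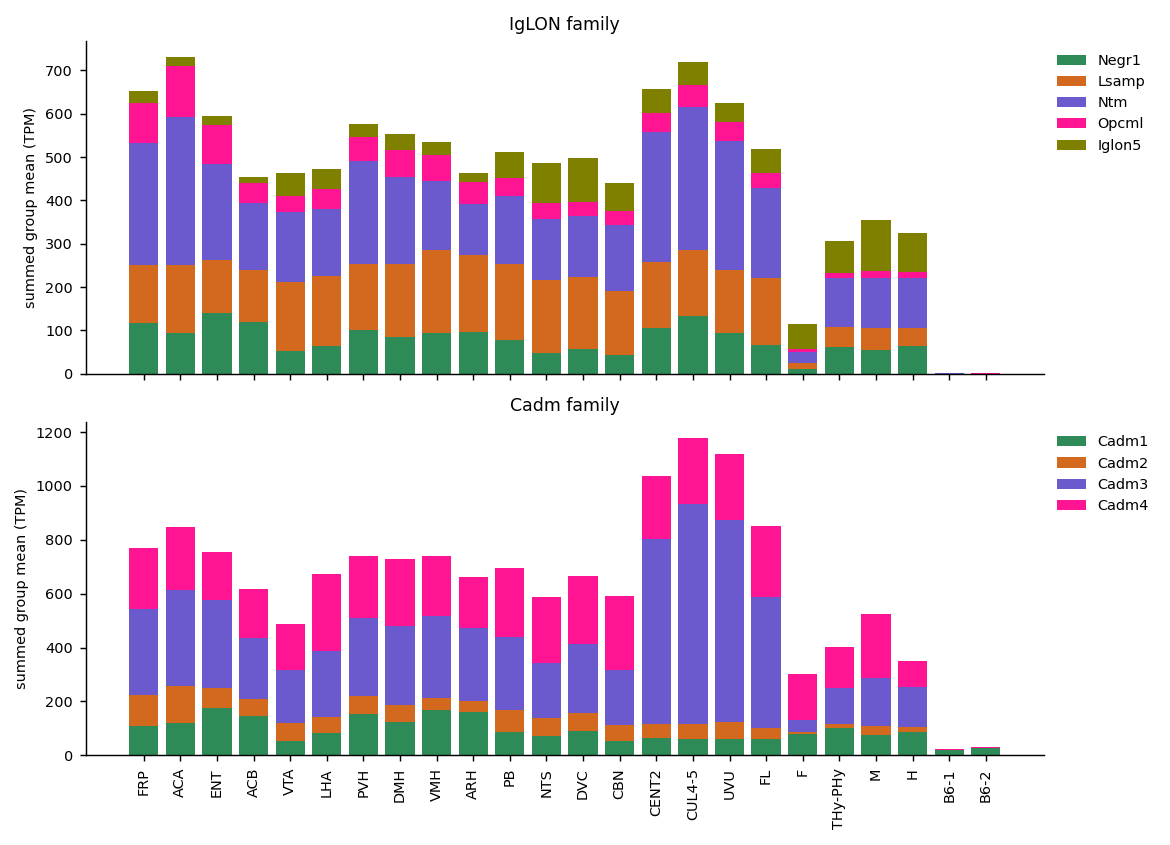
Stacked bars of the group means in TPM (vertical axis, from 0), with the 5 IgLON genes in the upper and the 4 Cadm genes in the lower panel, for the 24 groups. Ntm is the largest part of the IgLON bars in ACA and CUL4-5, Iglon5 takes a larger part in hindbrain and embryonic groups, Cadm3 raises the bars of the cerebellar cortex, and Cadm1 is most of what is left in the mESC lines.

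Comparisons between areas were made with edgeR's quasi-likelihood test on estimated counts, in 1 fit of all libraries, and a gene was called at a Benjamini-Hochberg adjusted p under 0.05 over the 19960 genes tested and an absolute log2 fold change above 1. Log2 fold changes are followed by their standard errors. The areas share their control regions, so the comparisons are not independent of each other.

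In the cerebral cortex (ACA, FRP and ENT against the other 15 adult regions) Opcml and Cadm2 rose and no member fell, where 8.16% of all genes were called higher and 7.97% lower. Opcml ranged from 70.96 to 125.8 TPM over the 9 cortical libraries (median 104.1 TPM) and from 26.22 to 67.68 TPM over the other 48 adult libraries, and the 2 ranges did not overlap. Its log2 fold change was 1.30 ± 0.06 (2.47-fold; adjusted p = 2.8e-25, edgeR). Cadm2 ranged from 48.18 to 149.4 TPM (median 115.1 TPM) and overlapped with the other regions because of ENT. Its log2 fold change of 1.01 ± 0.10 (adjusted p = 1.7e-13, edgeR) lay at the fold limit: it was 0.82 with limma on log2(TPM + 0.5), and 0.91, 0.95, 0.99 and 1.00 in edgeR without FRP replicate 2, ENT replicate 1, VTA replicate 2 or PVH replicate 2, below the limit each time. Negr1 (0.74 ± 0.07), Ntm (0.71 ± 0.07), Cadm1 (0.67 ± 0.04) and Cadm3 (0.30 ± 0.06) were higher at the p threshold without reaching the fold limit, Iglon5 was lower (-0.83 ± 0.07), and Lsamp (-0.11) and Cadm4 (-0.01) did not pass. With the p threshold alone 7 members passed, as did 58.7% of all genes. The median of the 9 log2 fold changes was 0.67, against -0.03 over all genes. The summed neuron markers (Rbfox3, Snap25, Syt1, Tubb3 and Map2) were also high in cortex, at 3282 to 5319 TPM against a range of 2010 to 5319 TPM over all adult libraries, and the 5 oligodendrocyte markers low, at 579 to 2000 TPM against a range up to 17498 TPM. The part of this in the differences was not tested.

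In ACB, a part of the ventral striatum, only Iglon5 was called among the 9 genes. It fell 2.91-fold (log2 fold change -1.54 ± 0.12, adjusted p = 2.7e-16, edgeR), and its 3 libraries (13.99 to 15.21 TPM) were below all 54 others of adult brain (18.52 to 116.5 TPM). Over all genes 7.26% were called higher and 5.52% lower. Cadm1 (0.54 ± 0.06) and Negr1 (0.44 ± 0.11) were higher within the fold limit, and Lsamp (-0.59 ± 0.12), Ntm (-0.51 ± 0.12), Cadm3 (-0.48 ± 0.10) and Cadm4 (-0.48 ± 0.15) lower, all with an adjusted p under 0.05, a threshold that 41.4% of all genes passed. Opcml (-0.25, adjusted p = 0.072) and Cadm2 (-0.28, adjusted p = 0.21) did not pass in edgeR.

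In the hypothalamus (ARH, DMH, LHA, PVH and VMH against the other 13 adult regions) no member was called, where 5.88% of all genes were called higher and 2.92% lower. With the p threshold alone, 6 members and 51.7% of all genes passed in edgeR: Cadm1 (log2 fold change 0.57 ± 0.03, adjusted p = 2.8e-20) and Lsamp (0.14 ± 0.06, adjusted p = 0.046) were higher, and Iglon5 (-0.65 ± 0.06), Cadm3 (-0.54 ± 0.05), Cadm2 (-0.51 ± 0.09) and Ntm (-0.47 ± 0.06) lower. Cadm1 differed between the nuclei, from 76.79, 87.16 and 82.09 TPM in LHA to 160.6 and 173.0 TPM in VMH, with no overlap between these regions. The VMH punches also carried the LHA transcripts named above.

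Within the hypothalamus, ARH, which holds the Pomc and Agrp neurons of appetite control, was compared with the other 4 regions, and no member was called (4.5% of all genes higher, 2.31% lower). For Iglon5, Ntm, Cadm2 and Cadm4 all 3 ARH libraries lay below the range of the other 11. How many of all genes did so was not counted. Iglon5 read 18.52, 20.74 and 19.49 TPM in ARH against 24.65 to 53.22 TPM (log2 fold change -0.90 ± 0.12, adjusted p = 3.7e-08, edgeR). Ntm read 123.2, 119.7 and 112.1 TPM against 140.7 to 240.3 TPM (-0.69 ± 0.13, adjusted p = 5.8e-05), and Cadm2, an obesity locus gene, 42.22, 34.55 and 41.96 TPM against 46.43 to 88.13 TPM (-0.67 ± 0.19, adjusted p = 0.0077). These differences passed the p threshold, as 23.3% of all genes did, but not the fold limit. Cadm4 read 211.7, 181.6 and 181.8 TPM against 217.8 to 301.5 TPM, and its log2 fold change of -0.44 ± 0.17 did not pass either (adjusted p = 0.05 after rounding, edgeR). Cadm1 was higher (0.31 ± 0.07, adjusted p = 0.00091, edgeR) and Negr1, the third obesity locus gene, did not pass. Its ARH libraries, at 94.4, 97.01 and 98.93 TPM, lay within the 61.65 to 105.4 TPM of the others. The ARH punches also carried the PVH and VMH transcripts named above.

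In the cerebellar cortex (CENT2, CUL4-5, UVU and FL against the other 14 adult regions) Cadm3 rose and no other member was called, where 8.55% of all genes were called higher and 9.42% lower. Its 15 libraries ranged from 414.0 to 858.9 TPM (median 745.1 TPM) and the other adult libraries from 153.5 to 366.2 TPM, without overlap, with a log2 fold change of 1.24 ± 0.05 (2.36-fold, adjusted p = 1.6e-29, edgeR). Ntm was higher (0.65 ± 0.06, adjusted p = 7.4e-15) and Cadm1 lower (-0.76 ± 0.04, adjusted p = 2.3e-25), and both stayed under the fold limit. Iglon5 (0.33) and Negr1 (0.17) were also higher and Opcml (-0.49) and Cadm2 (-0.28) lower at the p threshold, which 66.2% of all genes passed. Markers of granule cells (487 to 1521 TPM, against at most 8.59 TPM in adult libraries outside the cerebellum), of Purkinje cells (889 to 2919 against at most 68.5 TPM) and of astrocytes (986 to 1218 TPM against at most 775 TPM in the other adult libraries) moved with these differences, and their part in them was not tested.

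CBN, which lie under the cerebellar cortex, had lower levels of Cadm3 and Negr1 than that cortex, and both were called (5.58% of all genes lower, 10.9% higher). Cadm3 read 188.3, 210.1 and 223.0 TPM in CBN and at least 414.0 TPM in the cortex, and fell 2.86-fold (log2 fold change -1.52 ± 0.12, adjusted p = 7.1e-16, edgeR). Negr1 read 43.83, 39.82 and 49.46 TPM against 59.34 to 140.6 TPM and fell 2.08-fold (-1.05 ± 0.13, adjusted p = 3.2e-09). Without CBN replicate 1 the Negr1 value was -0.99, just within the limit. Ntm was lower with no overlap (147.3 to 159.9 against 180.0 to 339.0 TPM, log2 fold change -0.76 ± 0.13), while Iglon5 (0.52 ± 0.10) and Cadm4 (0.44 ± 0.15) were higher at the p threshold, which 49.5% of all genes passed. The CBN libraries held more of the oligodendrocyte markers (10574 to 17498 TPM, against 1158 to 11112 TPM in the cortex), less of those of granule cells (69.12 to 178.6 against 487.3 to 1521 TPM) and of Purkinje cells (Pcp2 and Car8, 280.7 to 599.6 against 889.5 to 2919 TPM), and 3487 to 12429 TPM of markers of ependyma and choroid plexus. Their part in these differences was not tested.

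In the hindbrain nuclei (NTS, DVC and PB against the other 15 adult regions) Iglon5 rose and no other member was called (5.18% of all genes higher, 2.66% lower). Its 10 libraries ranged from 58.57 to 116.5 TPM (median 90.22 TPM) and overlapped with VTA, CBN and CENT2, which reached 65.49, 67.14 and 60.23 TPM. The log2 fold change was 1.28 ± 0.05 (2.42-fold, adjusted p = 5.7e-26, edgeR). The other members that passed the p threshold were all lower: Ntm (-0.64 ± 0.07), Negr1 (-0.57 ± 0.07), Opcml (-0.51 ± 0.07), Cadm3 (-0.49 ± 0.06) and Cadm1 (-0.29 ± 0.04). Over all genes 50.7% passed it, and without VTA replicate 1 Lsamp did too (0.16, adjusted p = 0.026, edgeR). The oligodendrocyte markers summed to 9572 to 14668 TPM in these nuclei, against a median of 3987 TPM over all adult libraries, and their part in the differences was not tested.

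**Figure D3:**
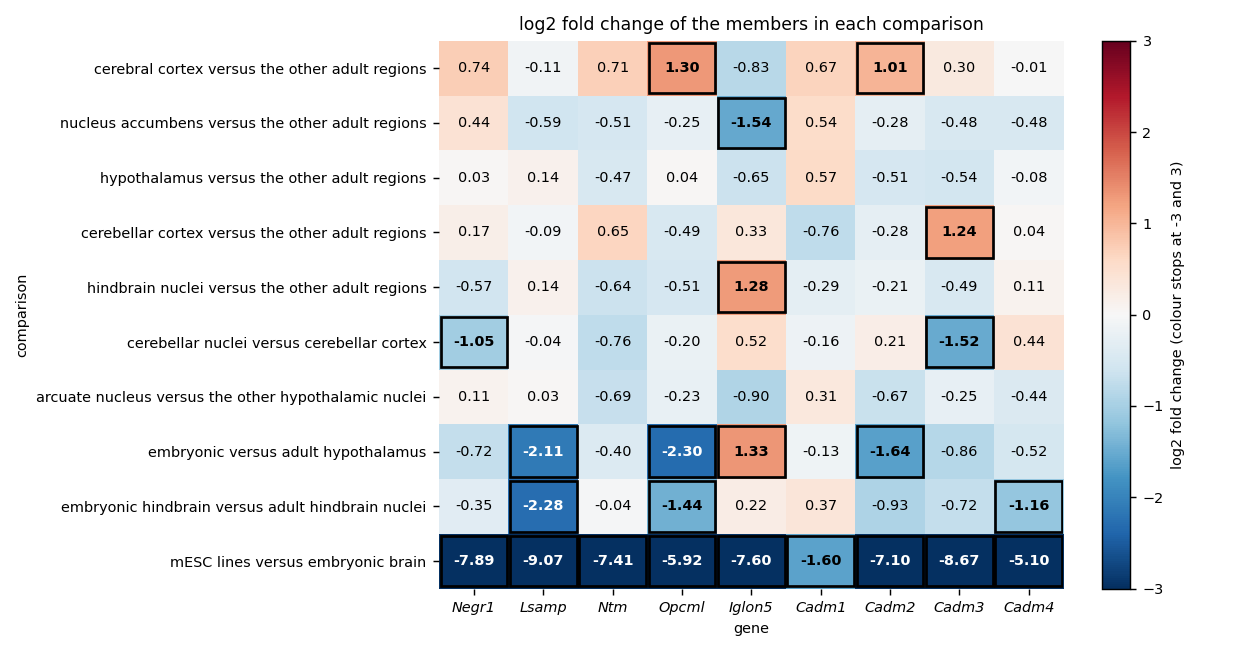
Log2 fold changes (colour scale, edgeR) of the 9 genes (columns) in the 10 comparisons (rows), with colours that stop at -3 and 3 and boxes around the values that passed the adjusted p and the fold limit. Boxes mark Opcml and Cadm2 in the cortex, Iglon5 in ACB and the hindbrain nuclei, Cadm3 in both cerebellar comparisons, Negr1 in CBN, 4 genes in the embryonic hypothalamus, 3 in the embryonic hindbrain and all 9 in the mESC lines, where the fitted values of the 7 genes with 16 or fewer counts per mESC library are no measure of size.

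The embryonic hypothalamus THy-PHy (E14.5, 3 libraries) was set against the 14 adult libraries of hypothalamus. Opcml, Lsamp and Cadm2 fell and Iglon5 rose, each without overlap, where 19.4% of all genes were called lower and 18.9% higher. Opcml read 10.69, 14.17 and 14.17 TPM in THy-PHy and 43.43 to 67.68 TPM in the adult (log2 fold change -2.30 ± 0.14, adjusted p = 1.8e-20, edgeR). Lsamp read 34.94, 63.10 and 43.85 TPM against 152.5 to 191.9 TPM (-2.11 ± 0.14, adjusted p = 1.1e-18), and Cadm2 15.66, 13.93 and 12.55 TPM against 34.55 to 88.13 TPM (-1.64 ± 0.21, adjusted p = 7.9e-10). Iglon5 went the other way, with 68.44, 67.68 and 80.65 TPM against 18.52 to 53.22 TPM (1.33 ± 0.10, 2.51-fold higher, adjusted p = 1.8e-17). Cadm3 (-0.86 ± 0.11), Negr1 (-0.72 ± 0.13), Cadm4 (-0.52 ± 0.16) and Ntm (-0.40 ± 0.13) were lower at the p threshold, which 67.8% of all genes passed, and Cadm1 did not pass (-0.13, adjusted p = 0.12). With limma on TPM, Cadm3 was at -1.05 (pseudocount 0.5), past the limit.

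The same comparison in the hindbrain set H (3 libraries) against the 10 libraries of NTS, DVC and PB. Lsamp, Opcml and Cadm4 fell, where 21% of all genes were called lower and 23.0% higher. Lsamp read 20.02, 59.16 and 42.11 TPM against 154.3 to 191.2 TPM (log2 fold change -2.28 ± 0.15, adjusted p = 1.4e-19, edgeR), and Opcml 9.509, 17.13 and 16.82 TPM against 26.22 to 44.16 TPM (-1.44 ± 0.14, adjusted p = 8.8e-14). Cadm4 read 30.22, 100.7 and 161.2 TPM against 224.5 to 282.1 TPM (-1.16 ± 0.18, adjusted p = 8.8e-08), and without H replicate 1, the library with low neuron markers, its value was -0.80 and no longer past the fold limit. Without that library Lsamp was at -2.06 and Opcml at -1.35, both still past the limit. H replicate 1 was the lowest of the H libraries for 8 of the 9 genes, all but Negr1.

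Cadm2 in the hindbrain differed between the fits on counts and on TPM. It read 11.81, 22.32 and 25.38 TPM in H against 60.63 to 99.19 TPM in the adult, with no overlap, yet its log2 fold change was -0.93 ± 0.20 on counts (adjusted p = 4.9e-05, edgeR) and -1.89 on log2(TPM + 0.5) in limma. On counts without H replicate 2 it was -1.05. The mean length of its transcripts, weighted by TPM, was 5518 to 7322 bases in H and 2690 to 5356 bases in the hindbrain nuclei. A longer transcript gives more reads at the same TPM. The fits also differ in scaling and in model, and the part of length in the gap was not tested. Negr1 had a log2 fold change of -0.35 on counts (adjusted p = 0.016, edgeR) and of 0.04 on TPM in limma, so no direction is given for it. Cadm3 (-0.72 ± 0.11) was lower and Cadm1 (0.37 ± 0.07) higher at the p threshold, and Iglon5 (0.22, adjusted p = 0.067) and Ntm (-0.04, adjusted p = 0.84) did not pass, where 70.8% of all genes did. Without H replicate 1, Iglon5 passed the p threshold (0.36, adjusted p = 0.0062, edgeR) and Negr1 did not (-0.22, adjusted p = 0.19).

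Whether the difference between embryo and adult itself differed between hypothalamus and hindbrain was tested by an interaction contrast, which was added after the data had been seen. Iglon5 was the only member past the fold limit, with an interaction of 1.11 ± 0.15 on the log2 scale (adjusted p = 1.9e-07, edgeR; 3.82% of all genes were called higher and 6.04% lower). It rose in the hypothalamus of the embryo and was not called in the hindbrain, where the adult level was already 58.57 to 116.5 TPM. Leaving out THy-PHy replicate 3, H replicate 1 or H replicate 3 brought this value to 0.97, 0.97 and 1.00, below the limit. Opcml (-0.85 ± 0.17, adjusted p = 0.00017), Cadm2 (-0.71 ± 0.27, adjusted p = 0.036), Cadm1 (-0.49 ± 0.10, adjusted p = 0.00022) and Cadm4 (0.64 ± 0.23, adjusted p = 0.029) also passed the p threshold, as did 31.1% of all genes. Without H replicate 1, Cadm4 no longer passed it (0.29, adjusted p = 0.27, edgeR) and Negr1 did (-0.50, adjusted p = 0.038). The embryonic libraries carried little of the oligodendrocyte markers (15.3 to 40.1 TPM, against 579 to 17498 TPM in the adult) and more of the progenitor markers Nes, Sox2 and Mki67 (160 to 713 against 15.8 to 93.4 TPM). The part of these in the differences was not tested.

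In the mESC lines all 9 genes fell against the 4 embryonic brain groups, where 28.6% of all genes were called lower and 27.4% higher. Cadm1 was the exception in size. It read 20.2 and 21.26 TPM in B6-1 and 25.46 and 30.38 TPM in B6-2, with 718 to 1031 estimated counts per library, against 69.63 to 118.5 TPM in the embryonic brain (log2 fold change -1.60 ± 0.07, 3.02-fold, adjusted p = 9e-26, edgeR). Cadm4 read 2.889 to 4.289 TPM with 57 to 110 counts (-5.10 ± 0.21, adjusted p = 6.8e-28). The other 7 genes had 1 to 16 estimated counts per mESC library, which is less than 1 TPM each, so that their levels are near the limit of detection and their fold changes are not given in the text. Cadm1 made up 82.4% to 90.3% of the Cadm sum in these cells, and the IgLON sum was 1.42 to 1.88 TPM.

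Isoforms were compared by the share of a gene's TPM that each transcript took, between embryonic and adult hypothalamus and between cerebellar and cerebral cortex. These shares are estimates from short single reads, so that similar transcripts of a gene cannot be told apart with certainty. Of 26 transcripts tested with an exact permutation test over libraries (two-sided, 52 tests in all), 5 passed an adjusted p of 0.05 in the first comparison and 11 in the second. Only transcripts of the members were tested, so no share over all transcripts is given. The comparisons differ in their numbers of libraries, so these counts do not tell where isoform use differed more. These tests, and those of the exons below, take libraries of the same region as independent samples of its area. Their p-values may therefore be too small. In the first, with 3 against 14 libraries and 680 splits, the smallest possible p is 0.0029. Opcml-202, the main coding transcript of Opcml, took 67.6% ± 6.29 (SD, n = 3) in THy-PHy and 85.1% ± 1.69 (n = 14) in the adult (p = 0.0029, exact permutation test), while Opcml-205, which the annotation lists as a processed transcript without a coding sequence, took 17.6% ± 7.19 and 2.76% ± 1.30 (p = 0.0029, exact permutation test), both without overlap. In the second comparison Lsamp-207, also a processed transcript, took 5.61% ± 2.60 in cerebellar (n = 15) and 17.1% ± 5.65 in cerebral cortex (n = 9; p = 6.1e-06, exact permutation test).

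Summing the TPM of the transcripts that span an alternative exon by whether they hold it gave inclusion shares for 11 alternative coding exons of the members, tested in both comparisons (22 tests, added after the data had been seen), of which the 9 of the Cadm genes are described here. The 33-base exon of Cadm1 was included in 61%, 61.6% and 68.9% of this TPM in THy-PHy and in 34.3% to 53.9% in the adult hypothalamus (means 63.8% ± 4.38 and 42.2% ± 5.24, p = 0.0029, the smallest possible in this exact permutation test). No adult library reached the embryonic level: the highest of all 57 was 55.4%, and the 5 libraries of M and H lay between 61.9% and 78.5%, whereas F was at 42.1%. In the mESC lines the share was 15.5% to 38.3%. The exon was also included more in cerebellar than in cerebral cortex (43.6% ± 8.66, n = 15, against 31.2% ± 3.57, n = 9; p = 0.00045, exact permutation test), with overlapping libraries. So for Cadm1 the summed level did not pass the test between embryonic and adult hypothalamus, while the share of its transcripts with this exon did.

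The 84-base exon of Cadm1 was at 44.0% ± 1.06 in THy-PHy and 25.9% ± 8.11 in the adult hypothalamus (p = 0.012, exact permutation test, n = 3 and 14), with overlap through 1 LHA library at 49.6%. It was high in the mESC lines, at 75.9% and 60.6% in B6-1 and 87.8% and 87.1% in B6-2, and varied in H from 40.9% to 93.8% (the latter in replicate 1, with 66.3% next). The 102-base exon of Cadm3 was included in 46.1% to 56.7% of the spanning TPM in the 15 libraries of cerebellar cortex and in 24.2% to 44.8% in the 9 of cerebral cortex, without overlap (means 51.9% ± 2.85 and 37.4% ± 5.65, p = 1.5e-06, the smallest possible in this exact permutation test). Its group mean was highest in ARH, at 64.5%, 66.9% and 68.0%, where VMH overlapped with 59.7% to 68.1%. The lowest mean was in H, at 7.28% (replicate 1), 16.1% and 27.6%. THy-PHy spread widely, from 24.4% to 58.8%, against 51.6% to 68.1% in the adult hypothalamus (p = 0.021, exact permutation test, n = 3 and 14), a difference that did not pass after adjustment over the 22 tests (adjusted p = 0.065).

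None of the 5 alternative exons of Cadm2 nor that of Cadm4 differed at an unadjusted p under 0.05 in either comparison, with exact permutation p from 0.22 to 0.9. Not all of these are separate events. The 138-, 153- and 150-base exons of Cadm2 were skipped only by the same short transcript, Cadm2-204 (422 bases), and the 153- and 150-base exons had identical shares. The Cadm4 exon sets Cadm4-201 against Cadm4-202, a processed transcript of 491 bases.

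**Figure D4:**
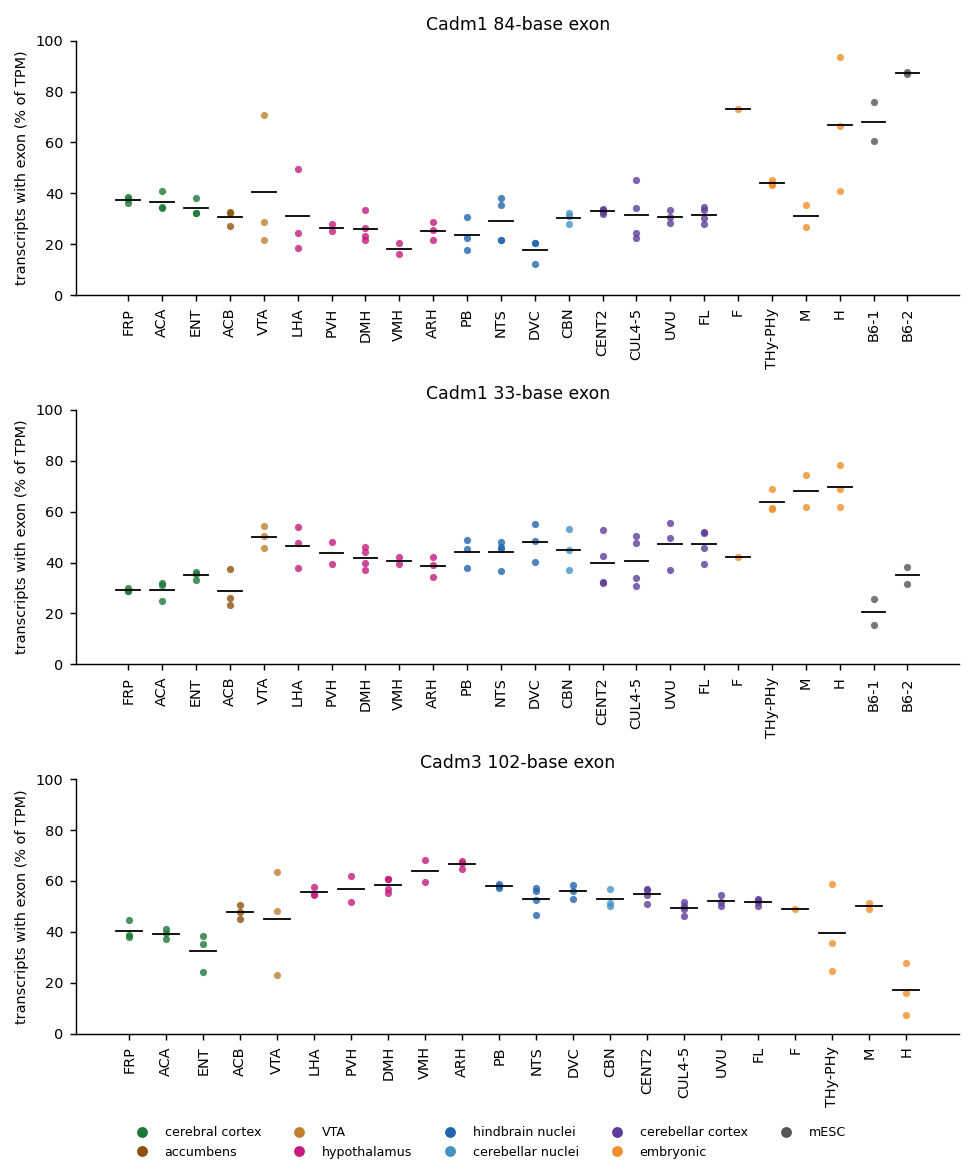
Percent of the TPM of transcripts that span the site in those that hold an alternative exon (vertical axis), per library (points) and group (horizontal axis), for 2 exons of Cadm1 and 1 of Cadm3. The Cadm1 33-base exon is at 61% or more in THy-PHy, M and H and at most 55.4% in adult libraries, and the Cadm3 exon is lower in the cerebral cortex than in the cerebellar cortex.

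A list of 17 genes held partners of these proteins, namely surface proteins that bind them, nectins, the band 4.1 and MAGUK proteins of the Cadm tail, the protease Adam10 and the receptor Fgfr2. A second list held 25 other neural adhesion genes such as neuroligins and contactins. Of the partners, 1 was called higher and 4 lower in the cerebral cortex, none higher and 3 lower in ACB, none and 2 in the hypothalamus, 4 and 1 in the cerebellar cortex, and 0 and 0 in the hindbrain nuclei, with list medians between -0.24 and 0.13. The shares of all genes called higher and lower were 8.16% and 7.97% in the cerebral cortex, 7.26% and 5.52% in ACB, 5.88% and 2.92% in the hypothalamus, 8.55% and 9.42% in the cerebellar cortex, and 5.18% and 2.66% in the hindbrain nuclei. Crtam, an immune cell receptor that binds Cadm1, read 40.08 to 147.7 TPM in the cerebellar cortex (median 103.4 TPM), 6.759 to 16.34 TPM in CBN and at most 1.291 TPM in all other adult libraries. Epb41, the band 4.1 protein of red cells, rose in the cerebellar cortex (89.33 to 217.1 TPM, log2 fold change 2.54 ± 0.05, adjusted p = 1.7e-43, edgeR) and was low in the cerebral cortex (9.932 to 21.3 TPM, -1.77 ± 0.07). Mpp2, a MAGUK protein, rose in the cerebral cortex (123.2 to 167.7 TPM, 1.47 ± 0.05, adjusted p = 1.6e-32, edgeR). Cadm3 and Epb41 were both called higher in the cerebellar cortex, and Opcml, Mpp2 and, at the fold limit, Cadm2 in the cerebral cortex. Other pairs moved apart. In the cerebellar cortex Crtam rose (log2 fold change 8.96 ± 0.13) where Cadm1 was lower (-0.76 ± 0.04), and Epb41l2 fell (-1.29 ± 0.07) where Cadm3 rose. Whether members and partners move together was not tested.

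Between embryonic and adult hypothalamus 2 partners were called higher and 5 lower, and in the hindbrain 4 and 5. Epb41 rose in both (log2 fold changes 2.42 ± 0.09 and 1.99 ± 0.10), as did Nectin2 (1.44 ± 0.10 and 1.73 ± 0.10). Of the other adhesion genes, none was called higher and 12 lower in the embryonic hypothalamus (median -0.94, against 0.03 over all genes), and 3 higher and 6 lower in the hindbrain (median -0.43). Over all genes 18.9% were called higher and 19.4% lower in the embryonic hypothalamus, and 23.0% and 21% in the hindbrain. Cntn1, a contactin that is lipid-anchored as the IgLON proteins are, fell most in both, with 10.61 to 11.44 TPM in THy-PHy against 130.1 to 192.7 TPM in the adult (log2 fold change -3.86 ± 0.13, adjusted p = 2.5e-31, edgeR). All 25 of these genes and 8 of the 17 partners fell in the mESC lines against embryonic brain, while 4 partners rose, among them Pvr (2.46 ± 0.12) and Mpp1 (2.13 ± 0.07), where 28.6% of all genes were called lower and 27.4% higher. In the areas of adult brain, 5 other adhesion genes were called higher and 1 lower in the cerebral cortex, 4 and 1 in ACB, 2 and 0 in the hypothalamus, and 1 and 7 in the cerebellar cortex, where Lrrtm1, a synaptic organizer, fell (2.658 to 12.03 TPM, log2 fold change -2.59 ± 0.09). In the hindbrain nuclei neither list had a call. In CBN against cerebellar cortex 2 partners were called higher and 3 lower, and 1 and 1 of the other genes, against 10.9% and 5.58% of all genes, and in ARH 1 partner was called lower, Nectin4 (-1.17 ± 0.15), against 2.31% of all genes.

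Over the means of the 24 groups on the scale of log2(TPM + 0.5), the genes most like each member among 15425 genes were Adgrb3 and Trim9 for Negr1 (Pearson r 0.991 and 0.985), App, Sv2a and Rab3a for Lsamp (each 0.996), Ank2, Trim9 and Cadm3 for Ntm (0.988 to 0.993), Atp6v0a1, Ncald and Syn2 for Opcml (0.988 to 0.990), Ina, Abcc9 and Shd for Iglon5 (0.968 to 0.975), Pdcd4, Tusc3 and Syt5 for Cadm1 (0.942 to 0.944), Rab6b, Mapk10 and Serpini1 for Cadm2 (0.987 to 0.991), Ackr1, Chgb and Reep2 for Cadm3 (0.989 to 0.991) and Efr3b, Cldn5 and Stmn3 for Cadm4 (0.989 to 0.992). These values describe 24 points that share low levels in the mESC lines. Over the 18 adult regions alone, r was 0.95 for Negr1 with Adgrb3 and 0.96 for Iglon5 with Ina but 0.07 for Lsamp with App. The value for Cadm3 with Ackr1 is uncertain, since these genes share exons. Among the members, over the same 18 regions, Ntm and Cadm3 had an r of 0.77, Negr1 and Opcml of 0.66, and Iglon5 had negative values with Cadm1 (-0.75), Negr1 (-0.71) and Opcml (-0.69).

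The members also differed in how their region means followed summed cell type markers over the 18 adult regions, which share libraries and dissection. The marker list with the largest absolute r was that of neurons for Cadm2 (0.76) and Ntm (0.69), that of oligodendrocytes for Negr1 and Opcml (each -0.82), and that of endothelium for Iglon5 (0.83), Cadm1 (-0.79) and Cadm4 (0.51, or 0.69 without VTA replicate 1). Iglon5 also had an r of 0.69 with the oligodendrocyte markers. For Cadm3 it was that of granule cells (0.78), with nearly the same size for Purkinje cells (0.77), oligodendrocyte precursors (-0.77, or -0.82 without VTA replicate 1), astrocytes (0.75) and microglia (-0.74), and Cadm1 likewise had an r of 0.72 with oligodendrocyte precursors and 0.70 with microglia. For Lsamp no marker list reached an absolute r above 0.33. These are descriptions of 18 means, and the cells in which a gene is expressed were not measured.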

How the data were processed

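The authors sequenced strand-specific mRNA libraries as short single reads (CASAVA 1.8.2 per the labels), estimated counts per transcript with kallisto on the cDNA of build GRCm38, and deposited these estimated counts without normalization between libraries. The deposited TPM values are scaled within each library and were summed by the authors per gene. Here 107899 of 109282 transcripts were matched to genes with the GENCODE M21 annotation, and the counts of a gene's transcripts were added up and rounded; 0.432% to 0.788% of counts fell on unmatched transcripts, and for 372 genes, no member among them, summed and deposited gene TPM differed. Counts were tested by the quasi-likelihood test of edgeR 4.0.16 (R 4.3.3) after TMM scaling and filterByExpr, in 1 model with the 24 groups and unweighted contrasts of group means. Calls needed an adjusted p below 0.05 and a log2 fold change beyond 1 in either direction. In simulated counts of independent libraries, the edgeR p threshold was tried for the cerebral cortex comparison without the fold limit. The outcome of that trial is not reported here. Alternatives were DESeq2 1.42.0, limma 3.58.1 on log2(TPM + 0.5) and log2(TPM + 0.1), no filter, no fold limit, a replicate block, no mESC libraries, and each library left out in turn (with the genes and dispersion trend of the full fit). Transcripts with at least 20% of a gene's TPM in a group were compared by exact permutation tests. At these depths the members had 202 to 23418 estimated counts in each brain library. How much of the spread between libraries came from counting was not tested. The study's supplement describes a batch for each sample, but the sample labels used here name none, so no batch was fitted. The members, the lists and the markers were chosen with earlier results of these data known. All 9 members are named, with the 3 genes most like each (2 for Negr1), and of each list up to 2 called genes at either end per comparison. Some results of the rule, markers and exons are not reported here.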

Additional observations from a re-analysis of the deposited data

Results flagged for a closer look

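In groups of 4 libraries (5 groups and 9 genes, 45 tests), 3 libraries lay far from the others of their group by Dixon's criterion, which flags about 1 in 20 groups by chance. Ntm read 311.0 TPM in CUL4-5 replicate 4 against 338.0 to 339.0 TPM in the others, Opcml 32.74 TPM in FL replicate 2 against 35.5 to 35.97 TPM, and Iglon5 86.76 TPM in NTS replicate 1 against 93.68 to 94.67 TPM.

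For 5 genes the log2 difference between embryo and adult differed between hypothalamus and hindbrain by the interaction contrast (edgeR, adjusted p under 0.05, which 31.1% of all genes passed), with values of 1.11 for Iglon5, 0.64 for Cadm4, -0.49 for Cadm1, -0.71 for Cadm2 and -0.85 for Opcml. A negative value means that the embryonic level was lower, relative to the adult, in the hypothalamus than in the hindbrain. Without H replicate 1, the library with low neuron markers and a high share of mitochondrial reads, the value of Cadm4 was 0.29 and no longer passed (adjusted p = 0.27, edgeR).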

How the results depend on the processing

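Without mESC libraries none of 90 values, and with DESeq2, without the filter on low counts and with a replicate block, none of the 99 values of 9 members in 11 comparisons changed direction or call. Replicate numbers did not pair the libraries: deviations of libraries with the same number had a median r of 0.01 (lowest -0.5, with 84 of 669 pairs over 0.1). With limma on TPM, 1 member was called in the cerebral cortex for either pseudocount, and Negr1 in the embryonic hindbrain changed sign to 0.04; the cause was not tested. Without the fold limit, calls numbered 7 in the cerebral cortex, 7 in ACB, 6 in the hypothalamus, 7 in the cerebellar cortex, 6 in the hindbrain nuclei, 5 in CBN, 4 in ARH, 8 in the embryonic hypothalamus, 7 in the embryonic hindbrain and 5 in the interaction; the shares of all genes were 58.7%, 41.4%, 51.7%, 66.2%, 50.7%, 49.5%, 23.3%, 67.8%, 70.8% and 31.1% in that order. Leaving out each library gave 1 to 2 calls in the cerebral cortex, 1 to 2 in CBN, 2 to 4 in the embryonic hindbrain and 0 to 1 in the interaction. The number of transcript shares past the threshold in the embryonic hypothalamus ranged from 0 (without THy-PHy replicate 2 or 3) to 11 (without replicate 1), against 5 with all. Leaving out a THy-PHy library also raises the smallest p that the exact permutation test can give. These counts therefore do not show what a single library contributed, and the part of this limit in the range was not tested. As a share of a gene's summed group means, Lsamp in VMH was 6.47% (6.32% without mitochondrial genes, 6.81% in CPM), and in CPM Ntm in ACA was 7.44% (8.28% in TPM), Cadm2 in ACA 9.25% (10.6%) and Cadm3 in CUL4-5 10.6% (11.6%). Below about 16 counts per library, as in mESC, depth limits the levels.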
